A study of Rattus norvegicus with 2 samples.

Results

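The Gadd45 family of rat consists of Gadd45a, Gadd45b and Gadd45g, and the rows of a transcript table carrying these 3 symbols were taken from 15409 symbols in all. The family was chosen because the title of the series names Gadd45b, together with reactive oxygen species and the kinase JNK, in mast cell activation by particulate matter. RNA was sequenced from RBL-2H3, a line of rat basophilic leukaemia cells that carries the high-affinity IgE receptor and serves widely as a mast cell model. Treated cells received PM2.5, fine particles, plus IgE and DNP-HSA, the antigen that crosslinks that IgE, and their library is titled PM100 with no dose unit. The other cells received normal saline. The labels give no time of collection and leave out if IgE and antigen were added to the saline cells as well, so particles and receptor crosslinking cannot be told apart. There was 1 library per group, so no difference below could be checked against replicates and the conditions could not be tested.

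GADD45 proteins are small acidic nuclear and cytoplasmic proteins with no enzymatic activity of their own. They act by binding partners: the kinase MAP3K4, which starts the p38 and JNK cascades, the kinase MKK7 directly upstream of JNK, the cell cycle proteins CDK1 and PCNA, and factors of active DNA demethylation. The 3 genes are induced by different stresses. Gadd45a is best known as a p53 and FOXO target after DNA damage, Gadd45b as a target of NF-kappaB and TGF-beta signalling that was first described as a myeloid differentiation gene (MyD118), and Gadd45g as a cytokine-induced gene of T cells. In mouse and human cells GADD45B has been described both as an activator of p38 through MAP3K4 and as an inhibitor of MKK7.

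Since the members were compared for their transcript levels, the 3 proximal promoters are shown first, to let their elements be set beside the levels of the factors that bind them. Each runs 5' to 3' on the gene's own strand from 250 bases before the RefSeq start to 50 bases after it (build GRCr8), and capitals mark the matches to the motifs searched. The windows are chr4:97486750-97487049 on the minus strand for Gadd45a, chr7:9430669-9430968 on the minus strand for Gadd45b and chr17:13530302-13530601 on the minus strand for Gadd45g.
Gadd45a: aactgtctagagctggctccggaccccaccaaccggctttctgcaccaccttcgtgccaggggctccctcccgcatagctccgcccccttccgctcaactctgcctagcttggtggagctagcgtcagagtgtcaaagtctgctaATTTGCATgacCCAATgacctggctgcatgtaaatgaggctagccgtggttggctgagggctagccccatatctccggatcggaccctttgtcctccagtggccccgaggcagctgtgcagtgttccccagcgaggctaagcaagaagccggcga
Gadd45b: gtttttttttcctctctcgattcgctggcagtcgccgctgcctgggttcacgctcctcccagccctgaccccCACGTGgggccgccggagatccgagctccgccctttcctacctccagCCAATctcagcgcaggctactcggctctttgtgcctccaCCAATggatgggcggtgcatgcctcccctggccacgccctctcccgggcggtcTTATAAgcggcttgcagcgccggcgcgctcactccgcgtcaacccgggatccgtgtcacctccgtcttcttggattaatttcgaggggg
Gadd45g: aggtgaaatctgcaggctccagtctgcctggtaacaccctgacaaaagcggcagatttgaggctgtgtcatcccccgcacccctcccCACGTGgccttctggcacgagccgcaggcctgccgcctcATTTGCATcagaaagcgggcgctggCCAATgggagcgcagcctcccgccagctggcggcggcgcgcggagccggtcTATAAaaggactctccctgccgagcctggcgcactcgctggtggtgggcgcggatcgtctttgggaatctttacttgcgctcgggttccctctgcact

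Motifs were searched on both strands, and the share of all 33469 promoters of the same length that hold each is given beside it. The octamer ATTTGCAT, bound by POU2F1, stood at position -105 of Gadd45a and at position -124 of Gadd45g, with 1.78% of all promoters holding it. It was not among the letters of the Gadd45b window. The E-box CACGTG, bound by MYC and related factors, stood at position -178 of Gadd45b and at position -163 of Gadd45g, against 6.42% of all promoters. The CCAAT box bound by NF-Y was found in all 3 windows, at position -94 of Gadd45a, at positions -131 and -92 of Gadd45b and at position -99 of Gadd45g, and in 37.5% of all promoters. The TATAA motif lay at position -38 of Gadd45b, inside a run that reads alike on both strands, and at position -48 of Gadd45g, with no match in Gadd45a and a match in 26.2% of all promoters. The NF-kappaB letters GGGNNTTTC, the AP-1 letters TGANTCA, the CRE letters TGACGTCA and the EGR letters GCGNGGGCG had 0 matches in these windows, while 4.53%, 7.33%, 1.83% and 4.98% of all promoters hold them in that order. Only these exact letters were searched and only in these short windows, so other forms of the sites and sites further away were not covered. The share of G and C bases was 60.3% in Gadd45a, 64.3% in Gadd45b and 64.3% in Gadd45g, against a median of 51.7% over all promoters.

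The reads recovered from the deposited values came to 3964955 in treated and 7279671 in saline cells over 20367 listed transcripts. This depth was 1.84 times as great in saline cells. The totals sequenced are not known here. Levels are normalised counts, the reads divided by a size factor of the library, and are not divided by transcript length. Folds are log2 ratios, treated over saline, after 1 is added to each normalised count. Intervals are 95% exact intervals that cover counting error only, since there was 1 library per group. Reads are not independent molecules, so the intervals may be too narrow even for that error. Of 15 mast cell and basophil markers 12 were measured, with a summed level of 28141 in treated and 30444 in saline cells, Kit, Gata2 and the IgE receptor subunits Fcer1a, Ms4a2 and Fcer1g among them. Kit and Gata2 made up most of that sum, and single markers differed by more than 2-fold, with Cpa3 at 1.74 and Hdc and Syk at -1.07 and -1.14. Tpsab1, Mcpt8 and Mcpt2 were not among the listed transcripts. Of 6 macrophage markers 4 were measured, with a summed level of 704 in treated and 1471 in saline cells, a difference carried by Csf1r (472 in treated and 1215 in saline cells), while Cd14 was at -0.03, Adgre1 at -0.13 and Cd68 had 0 reads in treated and 19 in saline cells. Of 5 fibroblast markers 4 were measured, with a summed level of 306 in treated and 226 in saline cells. Of 5 lymphocyte markers 0 were measured, and of 4 epithelial markers 1, Krt8, at 19.8 in treated and 9.54 in saline cells. The part of these differences in the Gadd45 values was not tested.

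Gadd45b had the highest fold of the 3 genes. Its transcript (gene ENSRNOG00000019822) had 138 reads in the treated library and 43 in the saline library, although the treated library was the shallower one. The normalised count was 228 in treated cells (interval 191 to 269), against 37.3 in saline cells (interval 27.0 to 50.2). The intervals of the levels do not overlap. Since whole cultures were sequenced, more cells with the transcript and more transcript per cell cannot be told apart. An equal level in both libraries would have given 22.6 reads in the treated one, where 138 were found. The log2 fold was 2.58. Without the added 1 the ratio of the normalised counts was 6.11 (interval 4.31 to 8.82). On the log2 scale that ratio is 2.61 (interval 2.11 to 3.14).

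Gadd45a, the abundant member, differed by far less. The transcript of this p53- and FOXO-responsive gene (ENSRNOG00000005615) had 3507 reads in treated and 5406 reads in saline cells. Its normalised count was 5792 in treated cells (interval 5602 to 5987) and 4689 in saline cells (interval 4565 to 4815). The treated library was the higher one, by a log2 fold of 0.30 (interval 0.24 to 0.37), a ratio of 1.24. The interval lies wholly on the higher side and stays within 2-fold.

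Gadd45g was close to the limit of detection in both libraries. This gene (ENSRNOG00000013090), known from cytokine-stimulated lymphocytes, had 6 reads in treated and 5 reads in saline cells. Its normalised count was 9.91 in treated cells (interval 3.64 to 21.6) and 4.34 in saline cells (interval 1.41 to 10.1). The intervals overlap. The log2 fold of 1.03 has an interval of -0.78 to 3.24 that includes 0, so a difference was not detectable at this depth.

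**Figure D1:**
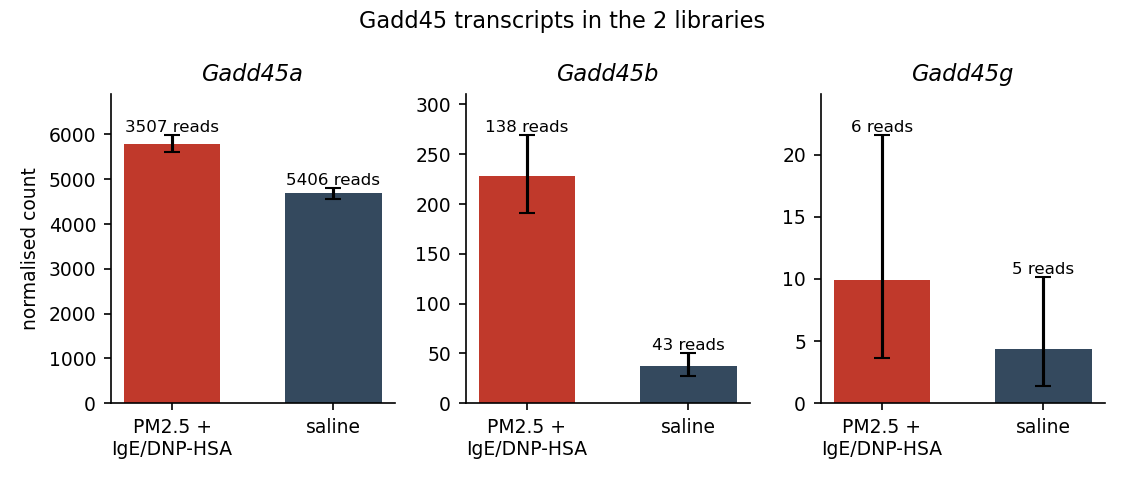
Normalised count (y axis, from 0, a scale of its own in each panel) of Gadd45a, Gadd45b and Gadd45g in the treated and the saline library; bars are the level in 1 library each and error bars exact 95% Poisson intervals of the reads. Gadd45b stands at 228 against 37.3 and Gadd45a at 5792 against 4689, with intervals that do not overlap, while the wide intervals of Gadd45g overlap.

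The members were also set against each other, which removes any scaling between the libraries. The treated-over-saline ratio of Gadd45b was 4.95 times that of Gadd45a, with an exact interval of 3.48 to 7.16. The ratio of Gadd45g was 1.85 times that of Gadd45a (interval 0.470 to 7.67), and that of Gadd45b 2.67 times that of Gadd45g (interval 0.610 to 11.0). Both intervals that involve Gadd45g hold 1, and its 11 reads in all cannot place it nearer to either. In terms of reads, Gadd45b made up 3.78% of the reads of the family in the treated library (138 of 3651, Clopper-Pearson interval 3.18 to 4.45) and 0.788% in the saline library (43 of 5454, interval 0.571 to 1.06). Gadd45a held 96.1% of the family's reads in treated and 99.1% in saline cells. The summed level of the family followed Gadd45a, at 6030 in treated and 4730 in saline cells, a log2 fold of 0.35 (interval 0.29 to 0.41).

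Set beside the other genes, Gadd45b stood near the upper end of the folds. Of 15097 symbols whose normalised count reached 1 in either library, 12.1% were higher in treated cells by 2-fold or more and 19.1% lower by as much, with a median log2 fold of -0.07. By the same rule 2 of the 3 members, Gadd45b and Gadd45g, were higher and 0 lower, the Gadd45g call resting on the 6 and 5 reads above. With a pseudocount of 5 (0.68) or with library totals made equal (0.98) Gadd45g was under 2-fold, which leaves 1 of 3. Among 13051 symbols whose normalised count reached 5 in either library, the fold of Gadd45b ranked 193 from the top, that of Gadd45g 1218 and that of Gadd45a 4128. The spread of folds depends on the level. Among the 3962 symbols with a mean level within 2-fold of that of Gadd45b, 8.4% were higher by 2-fold or more and 8.78% lower, and the interquartile range of the log2 folds was -0.50 to 0.47. Among the 1750 symbols near the level of Gadd45g, 20.3% were higher by 2-fold or more and 32.1% lower, and the interquartile range was -1.55 to 0.73. Of the 275 symbols near the level of Gadd45a, 7.64% were higher by 2-fold or more and 4% lower, and their interquartile range was -0.30 to 0.48, a range that holds the 0.30 of Gadd45a.

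**Figure D2:**
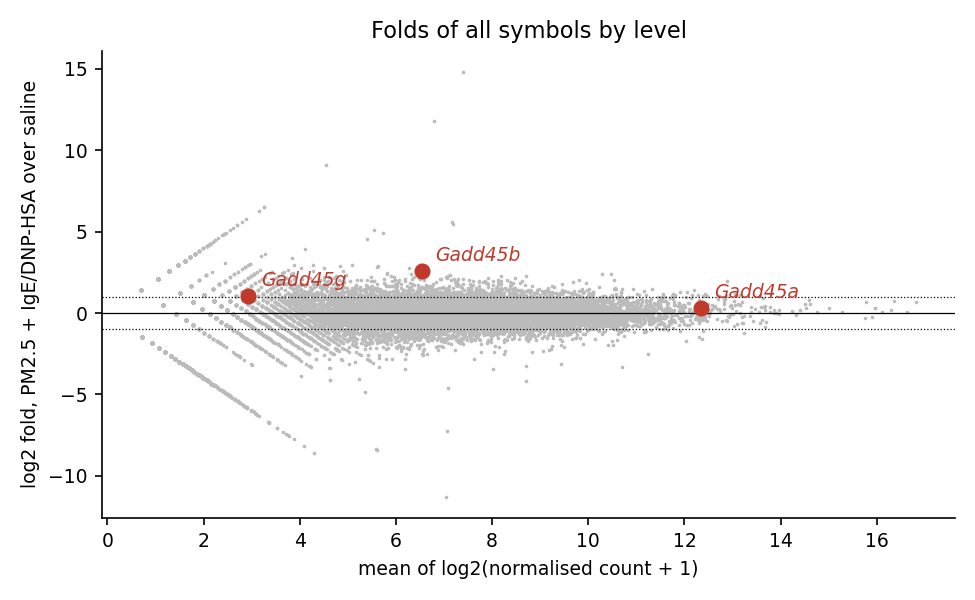
Log2 fold of treated over saline cells (y axis) against the mean of log2(normalised count + 1) over both libraries (x axis) for 15097 symbols (grey points), with the 3 Gadd45 genes in red and dotted lines at 2-fold either way. Gadd45b (2.58) lies above the bulk of genes of its level, Gadd45a (0.30) inside the narrow band of abundant genes and Gadd45g (1.03) inside the wide band of genes with few reads.

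In the authors' deposited table, which gives a log2 fold of saline over treated and hence the opposite sign, Gadd45b had -2.58 with a p of 0.0657 and an adjusted p of 0.920. In the authors' deposited table, 161 of 20367 transcripts had a lower p. The authors' deposited list of 57 selected coding transcripts, 18 of them higher and 39 lower in the treated library, ended at a p of 0.0499, and none of the Gadd45 transcripts was on it. The 18 selected transcripts whose mean log2 level lay within 1 of that of Gadd45b had absolute log2 folds of 2.70 to 3.90 in the authors' deposited table, next to the 2.58 of Gadd45b. In the authors' deposited table, Gadd45a and Gadd45g had an adjusted p of 0.920 as well. That is the lowest adjusted p in the authors' deposited table, so no transcript passed adjustment there, whatever its fold. The program behind these p-values is unknown here, and each rests on 1 library per condition.

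The genes next to each member on its chromosome were compared with it, taking the 5 nearest measured genes on either side in the RefSeq order. The 10 neighbours of Gadd45b on chromosome 7 had a median log2 fold of -0.66. None had a fold as high as its own, which only 1.47% of the ranked symbols exceeded. Among the 9 neighbours with reads in both libraries the log2 folds ran from -0.93 to 0.52 (Lsm7, an RNA-binding protein of mRNA decay). Tmprss9 had 0 reads in treated and 10 in saline cells, which a floor of 3 reads in treated cells makes at least 1.75-fold lower. Directly beside Gadd45b, Slc39a3, a zinc transporter, was at -0.93 (38 reads in treated and 139 in saline cells). On the other side of Gadd45b, Lmnb2, a nuclear lamin, was at -0.67 (78 reads in treated and 237 in saline cells). Of the 10 neighbours of Gadd45a on chromosome 4, 7 had a higher fold than Gadd45a itself, as had 31.6% of the ranked symbols, and the median of the 10 was 0.94. The higher ones included the chromatin remodeller Smarcad1 at 2.001, the prostaglandin D synthase Hpgds at 0.97 and the spindle checkpoint gene Mad2l1 at 0.95, and Tnip3 on 9 reads in treated and 0 in saline cells. Rpia at -0.55 and Eif2ak3 at -0.35 were lower, as was Thnsl2 with 0 reads in treated and 3 in saline cells. Gadd45g on chromosome 17 had 10 neighbours with a median of -0.17, among them the kinase Syk of the IgE receptor at -1.14 and the mitotic kinase subunit Cks2 at 0.83. None was above the 1.03 of Gadd45g, which 9.32% of the ranked symbols exceeded. That 1.03 rests on 6 reads in treated and 5 in saline cells (interval -0.78 to 3.24), so the place of Gadd45g among its neighbours is not settled.

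**Figure D3:**
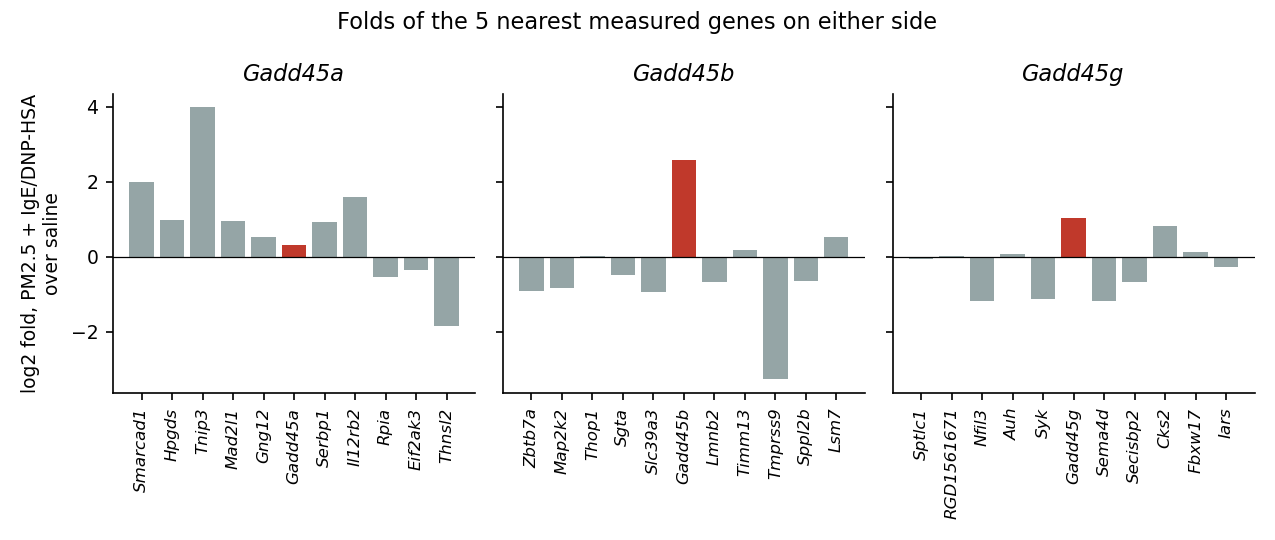
Log2 fold of treated over saline cells (y axis) for each Gadd45 gene (red) and the 5 nearest measured genes on either side (grey, in chromosome order, not to distance). Gadd45b at 2.58 stands above its neighbours, whereas 7 of the 10 genes around Gadd45a exceed its 0.30; the bars of Tnip3, Thnsl2 and Tmprss9 rest on 0 reads in 1 library and on the added 1.

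The genes most like each member in level in both libraries were found by the distance on the log2(normalised count + 1) scale over the 2 libraries, with no regard to transcript length. For Gadd45b the nearest symbols were Rn60_13_0064.1 (distance 0.34), Depdc1 (0.35), Kif20b (0.35), Guf1 (0.36) and Ccdc88a (0.40). Depdc1 and Kif20b are mitotic genes, Guf1 is a mitochondrial translation factor and Ccdc88a an actin-binding protein, and their log2 folds were 2.23, 2.39, 2.08 and 2.02. For Gadd45a they were Rpl41 (distance 0.064), Wnk1 (0.075), Sqstm1 (0.079), Cfl1 (0.079) and Rps16 (0.080), abundant genes with log2 folds of 0.20 to 0.35. For Gadd45g, 9 symbols had the identical 6 and 5 reads, so that no nearest gene could be singled out. These are likenesses over 2 libraries. Genes picked for like levels in both have like folds by construction, so their folds are no separate result.

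The first list held the GADD45 partners Map3k4, Map2k7 and Map3k5 with the other kinases directly upstream of p38 and JNK. Of 6 measured, 0 were higher in treated cells by 2-fold or more and 1 was lower by as much, beside 12.1% and 19.1% of all symbols, and the median log2 fold was -0.54 against -0.07 over all symbols. With 6 genes these counts are near the shares over all symbols. Those shares, here and for the lists below, include genes with few reads. Among symbols near the level of Gadd45b the shares were 8.4% and 8.78%. The lower one was Map2k3, which phosphorylates p38, with 188 in treated and 397 in saline cells (log2 fold -1.07, interval -1.39 to -0.78). Map3k4, the kinase that GADD45 proteins activate, had a normalised count of 347 in treated and 558 in saline cells (log2 fold -0.68, interval -0.92 to -0.46). Map2k7, which encodes the GADD45B partner MKK7, had 368 in treated and 502 in saline cells (log2 fold -0.45, interval -0.68 to -0.22). Map3k5, the oxidant-sensitive kinase ASK1, was at -0.63 (interval -0.85 to -0.41). Map2k4, the other kinase upstream of JNK, lay on the other side at 0.68 (interval 0.27 to 1.11), with 147 in treated and 91.1 in saline cells. The interval of Map2k6 (0.36) held 0.

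Of the MAP kinases and factors further down, 1 of 7 measured was higher by 2-fold or more and 3 were lower, beside 12.1% and 19.1% of all symbols, with a median of -0.88. The JNK genes Mapk8 (0.17, interval -0.05 to 0.39) and Mapk9 (0.30, interval -0.03 to 0.62) had intervals that held 0. With the transcript of highest level taken alone, these were at -0.06 and -1.19. The p38 gene Mapk13 and the JNK gene Mapk10 were not among the listed transcripts. The 3 measured p38 genes were below 0: Mapk14 at -0.88 (interval -1.05 to -0.72), Mapk11 at -1.73 (10 reads in treated and 66 in saline cells) and Mapk12 at -1.35 (5 reads in treated and 26 in saline cells). Of the factors phosphorylated at the end of the cascade, Atf2 was higher at 1.18 and Jun lower at -1.08.

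Of the 9 measured partners in the cell cycle and in chromatin, 1 was higher by 2-fold or more and 0 were lower, beside 12.1% and 19.1% of all symbols, and the median was 0.37. The higher one was Npm1, the nucleolar protein nucleophosmin, at 3247 in treated and 1179 in saline cells (log2 fold 1.46, interval 1.36 to 1.56). Pcna, the sliding clamp of DNA replication, was at 0.84 (interval 0.68 to 1.004), the mitotic kinase Cdk1 at 0.37 and its cyclin Ccnb1 at 0.39. With its highest transcript alone Cdk1 was at 1.28. The translation factor Eef1a1 stood at 0.83. Cdkn1a, the p21 inhibitor that acts beside GADD45A in the p53 response, had 1009 in treated and 1115 in saline cells (log2 fold -0.14, interval -0.29 to -0.0043). Gadd45gip1, a mitochondrial ribosomal protein that binds GADD45 proteins, was at -0.52 (interval -0.89 to -0.17), and the intervals of Ing1 (0.36) and Rxra (-0.05) held 0.

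Among the enzymes and factors linked to GADD45-dependent DNA demethylation, 0 of 9 measured were higher by 2-fold or more and 3 were lower, beside 12.1% and 19.1% of all symbols, with a median of 0.06; a minimum level of 10 left 2 of 8 lower. The lower ones were the methylcytosine dioxygenase Tet3 at -1.06 (interval -1.31 to -0.82), the nucleotide excision nuclease Ercc5 at -1.51 on 7 reads in treated and 40 in saline cells, and Apobec1 with 0 reads in treated and 8 in saline cells, which is short of 2-fold against a floor of 3 reads. Tet2 was at -0.22, and the intervals of Tet1 (0.12), the glycosylase Tdg (0.08), Ercc3 (0.06) and the glycosylase Mbd4 (0.45) held 0. Taf12, a transcription factor subunit that recruits GADD45A, was at 0.43 (interval 0.03 to 0.82). With the highest transcript alone Tdg was at -0.83 and Taf12 at 1.07.

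**Figure D4:**
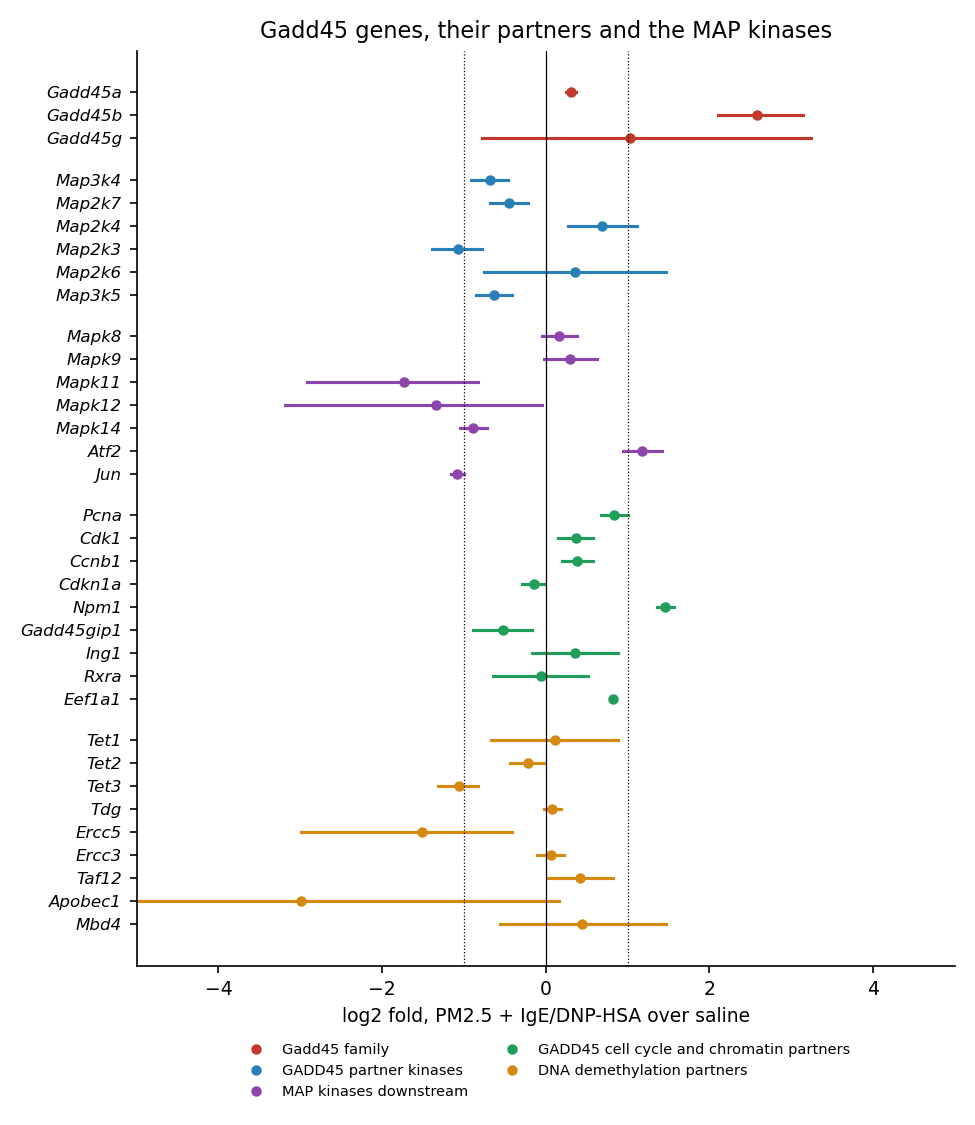
Log2 fold of treated over saline cells (x axis) with exact 95% intervals (lines) for the 3 Gadd45 genes and the measured genes of 4 lists of partners and MAP kinase genes, coloured by list; dotted lines mark 2-fold either way, and the line of Apobec1 runs on to the left of the axis. Gadd45b (2.58) has a higher point value than every listed gene shown, of which Npm1 (1.46) is the highest.

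The transcription factors known to act on Gadd45 genes were then set beside the promoters above. Of 15 measured, 0 were higher by 2-fold or more and 4 were lower, beside 12.1% and 19.1% of all symbols, with a median of -0.38. The lower ones were Egr1, an immediate early factor, at 1017 in treated and 5797 in saline cells (log2 fold -2.51), Myc at -1.71, the Gadd45a activator Foxo1 at -1.33 and the TGF-beta effector Smad3 at -1.24 on 7 reads in treated and 33 in saline cells. Brca1 (0.86) was the highest of the list, followed by Pou2f1, the octamer factor, at 0.44 (interval 0.0081 to 0.88), which was at 2.69 with its highest transcript alone. Nfya, a subunit of the CCAAT-binding factor, was at -0.38, and the stress factor Atf4 at -0.48. The NF-kappaB subunits Nfkb1 and Rela, whose dimer is the main known activator of Gadd45b, were at 0.32 (interval 0.16 to 0.48) and -0.57 (interval -0.82 to -0.33).

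Other target genes of the same factors gave the setting for the Gadd45b and Gadd45a values. Among NF-kappaB targets, 9 of 23 measured were higher by 2-fold or more and 1 was lower, beside 12.1% and 19.1% of all symbols, and the median was 0.46 beside -0.07. The higher ones included the feedback inhibitors Tnfaip3 at 1.85 and Nfkbia at 1.14 and the NF-kappaB subunit Relb at 1.73 (interval 1.29 to 2.23). The superoxide dismutase Sod2 at 1.41 and the chemokine Ccl3 at 1.91 were higher too. So were the inhibitor of apoptosis genes Birc2 at 1.06, Xiap at 1.08 and Birc3 at 1.003. With library totals made equal Birc3 was at 0.95. Cxcl10, a chemokine, had 17 reads in the treated library and 0 in the saline library and was at least 10.8-fold higher against a floor of 3 reads in the saline library. The chemokine Ccl2 was the lower one at -1.97, and the adaptors Traf1 (-0.74) and Traf2 (-0.92) lay below 0 too. Not all inhibitors and survival genes of the list were higher. The NF-kappaB inhibitor Nfkbie was at -0.61 (interval -1.07 to -0.18), and the interval of its relative Nfkbib (0.15) held 0. The intervals of the survival genes Cflar (-0.46), Bcl2a1 (-0.27) and Bcl2l1 (-0.01) held 0 as well. Of the 23 targets, 15 had a log2 fold above 0. The share of all symbols above 0 was not counted, and their median of -0.07 lies just below 0. All the higher ones are named here, of which Relb, Sod2, Birc2, Xiap and Birc3 were picked after their values were seen. The same holds for Nfkbie, Nfkbib, Cflar, Bcl2a1 and Bcl2l1. The list itself was chosen with earlier results of these data known.

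Among p53 targets other than the Gadd45 genes, 3 of 21 measured were higher by 2-fold or more and 2 lower, beside 12.1% and 19.1% of all symbols, with a median of -0.14. The higher ones were the cyclin G gene Ccng1 at 1.77 (interval 1.60 to 1.94), Tp53inp1, a gene of stress-induced cell death, at 1.23 (interval 0.91 to 1.57) and Rrm2b, a ribonucleotide reductase subunit, at 1.33 on 22 reads in treated and 16 in saline cells. The lower ones were the stress genes Sesn2 at -2.21 and Plk3 at -1.10, and the antiproliferative gene Btg2 stood at -0.79. The genes that share the growth arrest and DNA damage name or the related DDIT name gave 0 of 5 higher by 2-fold or more and 1 lower, again beside 12.1% and 19.1% of all symbols. Ddit4, an inhibitor of mTOR signalling, was the lower one, with 205 in treated and 592 in saline cells (log2 fold -1.53, interval -1.82 to -1.25). Ddit3, which encodes the stress factor CHOP (GADD153), was at -0.47 (interval -0.79 to -0.16), or -1.22 with its highest transcript alone. Ppp1r15a, known as GADD34 and a phosphatase subunit that reverses the integrated stress response, was at -0.08 with an interval that held 0 (-0.33 to 0.17), or 0.52 with its highest transcript alone. Its relative Ppp1r15b was at -0.76. Gadd45b was at 2.58, while none of these 5 genes had a value above 0 in the sum over transcripts. The median over all symbols was below 0 as well (-0.07), so values below 0 in 5 genes say little.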

How the data were processed

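The 2 libraries of RBL-2H3 total RNA were made with a stranded TruSeq kit, per the labels' protocols. The submitters' processing notes name STAR 2.5, DESeq 1.22.1, Cuffnorm and FastQC, with no role for each; no build, annotation, counting setting or use of strand is stated there. The authors deposited log2 values for each transcript. After 2 was raised to each value and 1 taken off, 100% in either library were whole multiples of a single step (tolerance 1e-06 reads). Such values are counts scaled by a size factor, 0.605 in treated and 1.15 in saline cells, and the reads were recovered from it. The authors' deposited p-values per transcript were used as listed. A further 4 columns of per-sample values were not used.

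Transcripts were summed by symbol; each Gadd45 gene has 1 listed transcript. A gene was counted as higher or lower when its log2 fold reached 1, with a pseudocount of 1 and a normalised count of 1 in either library. Intervals of folds come from the exact Clopper-Pearson limits of the share of a gene's reads that lay in treated cells; those of ratios of folds are conditional exact intervals of an odds ratio. The 8 lists hold 105 genes, of which 93 were matched by symbol. Members and lists were chosen with earlier results of these data known. Named genes are all members, all measured genes of the short lists, and of the 3 longer lists the 3 highest and 3 lowest folds and the 2 highest means. Smad3, Nfya, Nfkb1, Rela, Relb, Sod2, Birc2, Xiap, Birc3, Nfkbie, Nfkbib, Cflar, Bcl2a1 and Bcl2l1 were added after their values were seen. A gene within this rule is not reported here. Promoters and gene order come from RefSeq (GRCr8). Alternatives were other pseudocounts, minimums and scalings, the highest transcript alone and lncRNA left out. The scripts were checked on simulated Poisson counts. Tools were SciPy 1.17.1, NumPy 2.4.6 and pandas 2.3.3 under Python 3.11.15, with Matplotlib 3.10.9 for figures.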

Additional observations from a re-analysis of the deposited data

How the results depend on the processing

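The folds of the 3 Gadd45 genes and the 3 ratios between them stayed above 0 and inside their own counting intervals under the 18 of 27 alternatives that could change them; the other 9, on transcripts, cannot, since each gene has 1 coding transcript. Gadd45b ranged from 2.46 with a pseudocount of 5 to 2.60 with the median of ratios, and Gadd45a from 0.25 with library totals made equal to 0.33 with the median of ratios. Gadd45g was under 2-fold at 0.68 with a pseudocount of 5 and at 0.98 with library totals made equal. Of all symbols, 4702 were past 2-fold, against 2557 with a minimum of 10 and 2673 with a pseudocount of 5, since genes with few reads leave the count. The count of each of the 8 lists stayed within 1.5 times under the alternatives tried on it. These were other minimums, a pseudocount of 5, library totals made equal, a further scaling and lncRNA left out. They did not include the transcript of highest level alone, with which Cdk1 (1.28), Ddit3 (-1.22) and others passed the 2-fold limit. Cdk1 and Ddit3 each belong to a list with 1 gene past 2-fold in the sum over transcripts. Of the genes in the lists, 10 changed direction or passed or left the 2-fold limit with the transcript of highest level alone, and for Mdm2, within 2-fold in the sum, the value was 0.22 against -0.65; the cause was not tested. The scalings moved all folds by -0.06 to 0.02. That is little beside the intervals of Gadd45b and Gadd45g, so staying inside those was a weak check. No scaling can change the ratios between the members. No paired analysis was possible because each group has 1 library, and leaving out a library leaves no comparison. Depth limits Gadd45g, with 6 reads in treated and 5 in saline cells.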
